A study of Homo sapiens with 3 samples.

Results

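Gene expression was compared between a pair of arrays of SAS cells that carry the same label, ARID1A siRNA. SAS is a human cell line derived from a squamous cell carcinoma of the tongue. The array whose title ends in 109 is set against the array whose title ends in 108, over every probe set with exactly 1 gene symbol. That rule took 31134 of 53617 probe sets, which stand for 29402 genes, and used no measured value. Of these genes, 20582 passed a filter on low values and 8820 did not, of which 9 differed by at least 2-fold as measured. The platform was the Affymetrix Human Gene 2.0 ST array, and siRNA was delivered with Lipofectamine RNAiMAX. The remaining array, titled SAS NC and labelled mock, is used only to see which of the siRNA arrays stood apart. The labels leave unexplained what 108, 109 and NC stand for, whether the siRNA arrays had different siRNA sequences or separate cultures, and whether mock cells received a control siRNA. With 1 array a side there is no replicate check, no p-value is given, and a difference may be technical. In bulk RNA, fewer cells of a kind and less RNA per cell cannot be told apart.

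ARID1A is a DNA-binding subunit of the BAF form of the SWI/SNF complex, which moves nucleosomes with energy from ATP and keeps enhancers and promoters accessible. The gene is often inactivated in carcinomas. An siRNA directs cleavage of the transcript it matches, and it can also lower other transcripts that match its seed, so knockdowns are commonly made with several siRNAs and their effects compared. Transfected RNA can in addition set off interferon signalling.

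The target was lower on both siRNA arrays, and lowest on array 109. ARID1A, on chromosome 1, had a log2 value of 5.32 on array 109, 5.72 on array 108 and 6.79 on the mock array. The siRNA arrays differed by -0.40, or 1.32-fold. The general epithelial marker EPCAM was at 10.40 on array 109, 10.42 on array 108 and 10.33 on the mock array. Of the squamous markers, the basal lineage factor TP63 was at 7.81, 8.21 and 8.05 on array 109, array 108 and mock, while the keratins KRT14, KRT17 and KRT6A were at 4.40, 4.62 and 4.13 on array 109 and under the authors' negative control mean there. Of 11 epithelial markers, 8 lay above that mean on array 109, 11 on array 108 and 10 on the mock array. Their summed linear intensity was 4616 on array 109, 5970 on array 108 and 5338 on the mock array. SFN, the brightest of them, was at 10.91, 11.51 and 11.37 on those arrays. Of 8 leukocyte markers, CD68 and CSF1R lay above that mean on each array while PTPRC and CD3E were below it on each. Fibroblast, endothelial and glial markers had differences between the siRNA arrays of -0.20 to 0.

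The negative control mean was at log2 4.65 on array 109, 4.36 on array 108 and 4.43 on the mock array. The share of genes above it was 45.4% on array 109, 51.3% on array 108 and 49.7% on the mock array. The median of all probe sets was 3.99 on array 109, 3.97 on array 108 and 3.97 on the mock array. Normalization control sets on the array differed between the siRNA arrays too. The mean of 3575 intron sets was higher on array 109 than on array 108 by 0.216, and that of 1626 exon sets by 0.164. The mean of 39 poly-A spike sets differed by -0.214 and that of the probe sets for genes and transcripts by -0.000894. The part of these technical differences in the gene values below was not tested.

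Most genes were alike on the siRNA arrays. The log2 value was exactly tied for 9918 of the 20582 genes, or 48.2%, and 94.8% lay within 0.5 of each other. The SD over genes was 0.232 for array 109 minus array 108, against 0.212 for array 109 minus mock and 0.192 for array 108 minus mock. Thus the arrays that share a label were no closer to each other than either was to the mock array. At least 2-fold higher on array 109 were 96 genes, or 0.466% of those past the filter, and at least 2-fold lower were 71, or 0.345%. A 2-fold call also required the brighter array to lie above its own negative control mean, which left out 1 gene. At 1.5-fold the counts were 437 higher, or 2.12%, and 305 lower, or 1.48%. Under quantile scaling of the arrays the 2-fold counts were 81 higher and 83 lower, so which direction holds more genes depends on the scaling. At the edge of the rule, the Sprouty gene SPRY2 was just inside at 1.0002 and CD46 just outside at 0.99. On the lower side RAB38 was just inside at -1.0027 and FAM171B just outside at -0.9985.

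**Figure D1:**
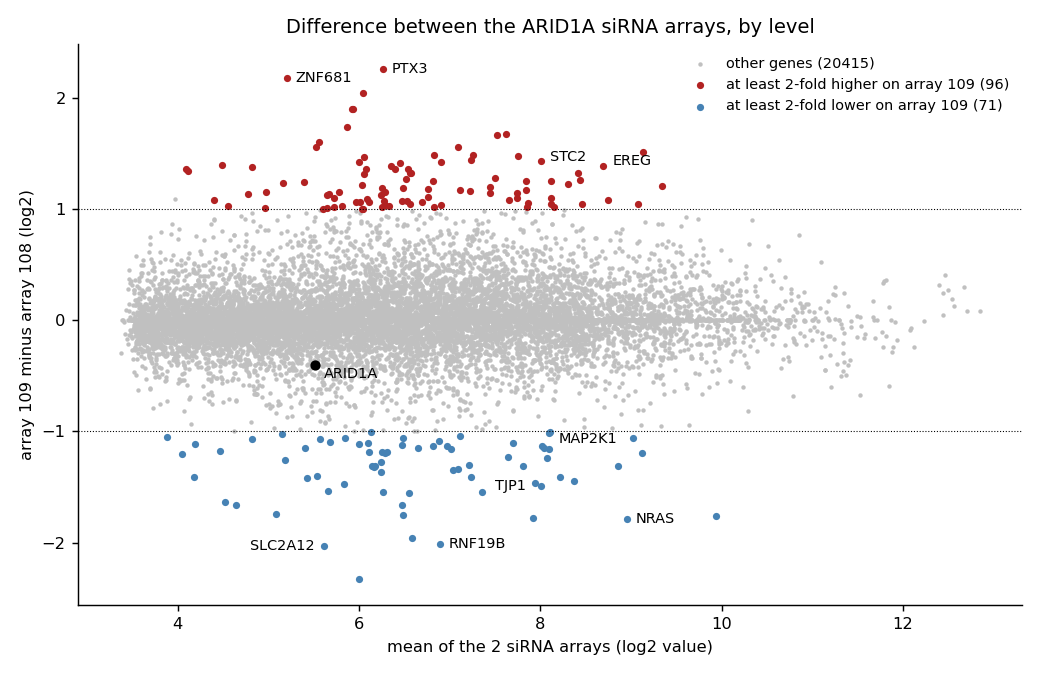
Each point is 1 of 20582 genes. The vertical axis is the log2 value on array 109 minus that on array 108, the horizontal axis is the mean of both, and dotted lines mark 2-fold. The 96 genes called higher and the 71 called lower lie mostly at middle levels, and ARID1A, in black, is at -0.40. One grey point above the upper line is the gene whose brighter array was not above the negative control mean.

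Among genes at least 2-fold apart, the median log2 level was 6.49 for the higher and 6.57 for the lower. Over all genes past the filter it was 5.28. The call rule itself favours brighter genes, as it requires the brighter array to lie above its own negative control mean. Over 10 bins of level, 0% of genes in the lowest bin were 2-fold apart, against 1.70% in bin 7 and 1.26% in the highest. The lowest bin spanned log2 levels of 3.52 to 3.79, under the negative control mean of every array, and 75.9% of its genes were tied. On the dimmer array 8 of the 96 and 12 of the 71 lay below the negative control mean, so for these only a bound on the fold is given. Against that bound 2 of the 8 and 4 of the 12 reached 2-fold, and the others count as 2-fold by their measured values only. Protein-coding genes made up 67 of the 96 and 61 of the 71. Their median genomic span was 25.8 kb for the higher and 35.8 kb for the lower, against 27.4 kb for all detected protein-coding genes. For background, 13309 genes lay above the negative control mean on both siRNA arrays, and 11366 of them were protein-coding with a known span. Genes called were spread over the chromosomes, from 0.177% of the genes on chromosome 22 to 1.85% of those on chromosome 13. Neighbouring pairs called together were few. They were SCARNA9 with TAF1D and TAF1D with SNORD6 on chromosome 11, AADACP1 with AADAC on chromosome 3, and ZNF117 with ERV3-1 on chromosome 7.

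The mock array showed an uneven split between the directions. Among the 71 genes lower on array 109, array 109 alone was at least 1.5-fold from mock in 56, and array 108 alone in 8. Among the 96 higher on array 109, array 109 alone was away from mock in 36 and array 108 alone in 48. Genes low on array 109 alone had a median of -1.19 against mock on array 109 and 0.07 on array 108. The genes that array 108 alone set apart, 48 of the 96, had a median of 0.26 against mock on array 109 and -0.92 on array 108. So on each siRNA array the larger class was genes low on that array. A further 7 higher and 6 lower genes differed from mock on both arrays in opposite directions, 5 higher genes reached 1.5-fold on neither array, and NANOS1 was lower than mock on both. NANOS1, a translational repressor known from germ cells, was at 6.56 on array 109, 7.86 on array 108 and 8.77 on the mock array. For background, array 109 was at least 2-fold above mock in 47 genes (0.228%) and below it in 86 (0.418%), and array 108 in 21 (0.102%) and 53 (0.258%). At 1.5-fold the shares above and below mock were 0.986% and 1.69% on array 109, and 0.666% and 1.44% on array 108. Both differences use the same single mock array.

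**Figure D2:**
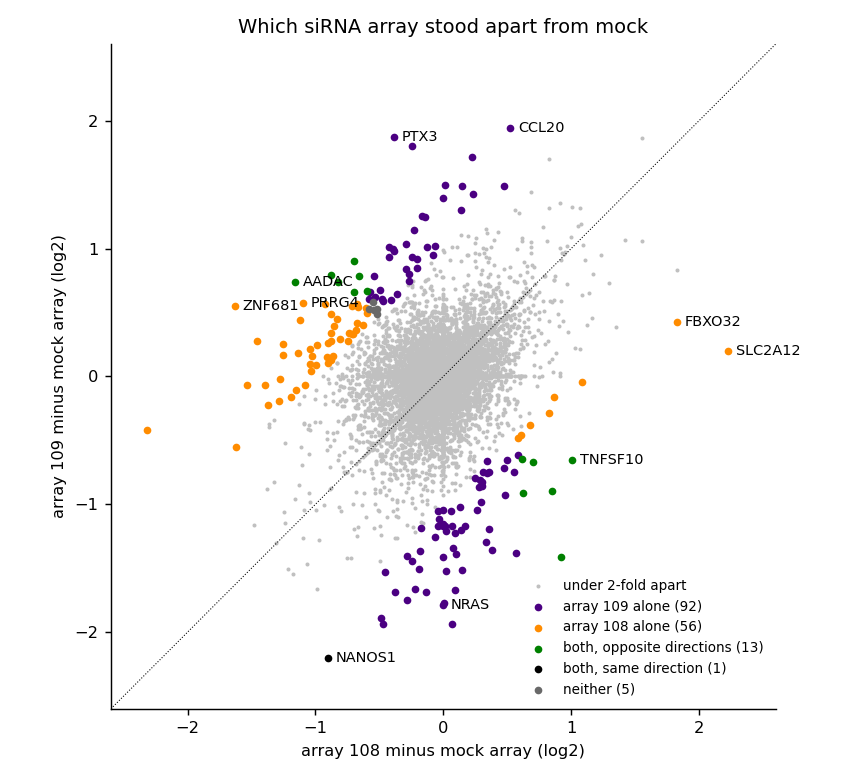
The vertical axis is array 109 minus mock and the horizontal axis array 108 minus mock, both as log2, for each gene past the filter. Colours mark the genes at least 2-fold apart by which siRNA array was at least 1.5-fold from mock: array 109 alone (92), array 108 alone (56), both in opposite directions (13), both in the same direction (1) or neither (5). NRAS lies low on array 109 alone, whereas ZNF681 lies low on array 108 alone.

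Genes lower on array 109 alone included a RAS gene and a kinase of the same cascade. NRAS, a RAS GTPase on chromosome 1, was at 8.06 on array 109, 9.85 on array 108 and 9.85 on the mock array, a difference of -1.79 between the siRNA arrays. The kinase MAP2K1, which acts downstream of RAF, was at 7.59 on array 109, 8.61 on array 108 and 8.65 on the mock array. In both the mock array lay beside array 108. The RAS and RAF list as a whole had 7 of 24 members above 0 and 10 below, with a median of 0. RRAS was at 6.99 on array 109, 7.58 on array 108 and 7.56 on the mock array, which is under 1.5-fold from mock on either siRNA array. SOS1, the exchange factor that loads RAS with GTP, was at 7.91 on array 109, 7.28 on array 108 and 7.91 on the mock array. RHEB, an activator of mTOR, was at 5.20 on array 109, 4.29 on array 108 and 5.42 on the mock array. As array 108 was below its negative control mean, RHEB was at least 1.79-fold higher on array 109. For SOS1 and RHEB it was array 108 that stood apart from mock.

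Cell contact, trafficking and ubiquitin genes were also among the genes low on array 109 alone. The ubiquitin ligase RNF19B was at 5.89 on array 109, 7.90 on array 108 and 7.83 on the mock array, 4.03-fold lower on array 109 than on array 108. ANXA9, an annexin of stratified epithelium, was at 5.60, 7.56 and 6.99 on array 109, array 108 and mock. The lysophospholipid acyltransferase LPCAT2 was at 7.03 on array 109, 8.80 on array 108 and 8.80 on the mock array. In all 3 genes array 109 was the low one. TJP1, the tight junction scaffold ZO-1, was at 7.21 on array 109, 8.67 on array 108 and 8.96 on the mock array. The vesicle SNARE protein VAMP7, on chromosome X, was at 7.26 on array 109, 8.75 on array 108 and 8.65 on the mock array. Its probe sets differed by -1.48 and -1.49. OTUD1, a deubiquitinase, was at 5.65 on array 109, 7.31 on array 108 and 7.16 on the mock array. The differences were -1.55 for the BMP-binding protein TWSG1, -1.54 for TOX4, which is part of a phosphatase complex on chromatin, and -1.56 for the endosomal adaptor RUFY2. CLCA2, a squamous chloride channel regulator, was at 4.21 on array 109, 5.96 on array 108 and 5.58 on the mock array. Its value on array 109 was under the negative control mean, which makes it at least 2.46-fold lower there than on array 108. The chemokine scavenger receptor ACKR3 was at least 1.61-fold lower, at 3.71 on array 109, 5.34 on array 108 and 5.01 on the mock array.

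Few genes were set apart by a high value on array 108. The glucose transporter SLC2A12 was at 4.60 on array 109, 6.62 on array 108 and 4.39 on the mock array, which makes it at least 3.92-fold lower on array 109. The tight junction claudin CLDN4 was at 4.64 on array 109, 5.67 on array 108 and 4.80 on the mock array, which makes it at least 2.02-fold lower on array 109. Both genes lay low on array 109 and on the mock array alike. The death ligand TNFSF10 was at 3.82 on array 109, 5.48 on array 108 and 4.47 on the mock array, at least 1.77-fold lower on array 109. The metallothionein MT1F was at 5.61 on array 109, 7.36 on array 108 and 6.51 on the mock array. CROT, a peroxisomal carnitine acyltransferase, was at 4.89 on array 109, 6.42 on array 108 and 5.80 on the mock array. In these 3 genes the mock array lay between the siRNA arrays.

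Genes higher on array 109 and away from mock there included secreted signals and stress genes. PTX3, a secreted pattern recognition protein induced in inflammation, had the largest positive difference of the named genes, at 7.39 on array 109, 5.13 on array 108 and 5.52 on the mock array, or 4.78-fold. The chemokine CCL20, a ligand of CCR6, was at 7.62 on array 109, 6.20 on array 108 and 5.67 on the mock array. STC2, a secreted glycoprotein and ATF4 target, was at 8.73 on array 109, 7.29 on array 108 and 7.72 on the mock array. These 3 genes were highest on array 109. CYP1B1, a cytochrome P450 that the aryl hydrocarbon receptor induces, was at 6.71 on array 109, 5.29 on array 108 and 5.45 on the mock array. SLC10A5, a member of the bile acid transporter family, was at 7.06 on array 109, 5.02 on array 108 and 5.26 on the mock array. TXNIP, an arrestin-domain protein that restrains glucose uptake, was at 8.004 on array 109, 6.52 on array 108 and 6.29 on the mock array. Its paralog ARRDC4, chosen after its values were seen, was at 7.04 on array 109, 5.65 on array 108 and 6.05 on the mock array. Both are textbook targets of the glucose-sensing factor MondoA.

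For TXNIP the stretch of promoter that holds a paired E-box is shown, since that element is where MondoA and ChREBP bind. It is taken from RefSeq on GRCh38.p14, at chr1:145996600-145996719 on the minus strand, upstream of the start site, with the match in capitals.
TXNIP: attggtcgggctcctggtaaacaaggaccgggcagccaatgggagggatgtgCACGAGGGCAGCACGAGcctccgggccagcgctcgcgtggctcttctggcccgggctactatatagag
The motif searched was CACGNG followed after 5 bases by CNCGNG, on both strands of promoters of 300 bases, and 108 of 14650 promoters, or 0.737%, held it. Of those 108 genes, 37 were above 0 and 24 below between the siRNA arrays, with a median of 0. ARRDC4 had no match in its window. A match is a description of the letters and not of binding.

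Genes that array 108 set apart by a low value formed another group. ZNF681, a zinc finger gene on chromosome 19, was at 6.29 on array 109, 4.11 on array 108 and 5.74 on the mock array, which makes it at least 3.81-fold higher on array 109. PPT1, a lysosomal enzyme that removes palmitate from proteins, was at 9.88 on array 109, 8.37 on array 108 and 9.63 on the mock array. POLR3G, a subunit of RNA polymerase III, was at 7.87 on array 109, 6.31 on array 108 and 7.43 on the mock array. The mock array lay nearer to array 109 in all 3. PRRG4, a transmembrane Gla protein, was at 8.46 on array 109, 6.79 on array 108 and 7.89 on the mock array. The ubiquitin-conjugating enzyme gene UBE2Q2 was at 6.79 on array 109, 5.32 on array 108 and 6.85 on the mock array. The values of the membrane protein gene TMEM200A were 7.17, 5.75 and 7.001 on array 109, array 108 and mock. AADAC, an esterase of the endoplasmic reticulum, was at 6.88 on array 109, 4.98 on array 108 and 6.14 on the mock array, which put mock between the siRNA arrays. The antisense gene LURAP1L-AS1 had the same order, at 6.36, 4.75 and 5.45 on array 109, array 108 and mock.

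**Figure D3:**
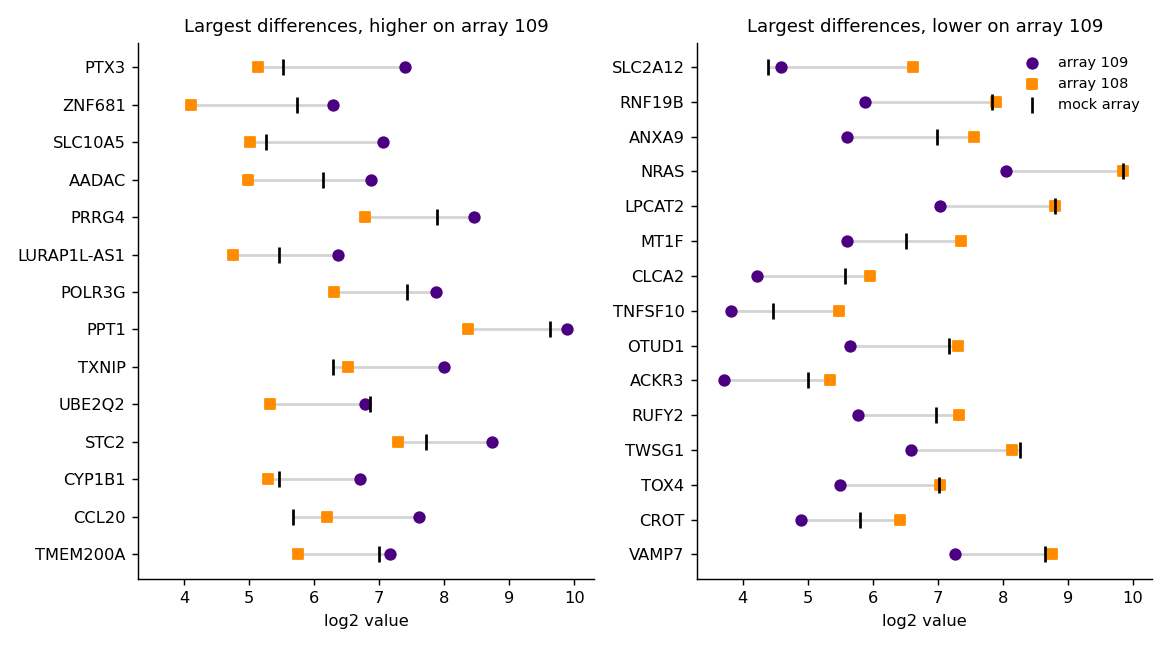
Log2 value on array 109 (circles), array 108 (squares) and the mock array (bars) for 14 of the 15 named genes with the largest positive differences and the 15 with the largest negative differences between the siRNA arrays. On the left the bars lie near the circles for genes such as UBE2Q2 and near the squares for genes such as PTX3. On the right they lie near the squares for most genes, and SLC2A12 is an exception.

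Pathways were described as gene lists. Over all genes past the filter 25% were above 0, 26.9% below and the rest tied, with a median of 0, and among the 13309 genes above the negative control mean on both siRNA arrays 32.4% were above 0 and 31% below. Of 46 lists, 20 had more members above 0 and 24 more below, and 27 had a median of 0. No list was tested. The 13 lists with a median at least 0.1 from 0 kept its sign under quantile, median and loess scaling. Quantile scaling moved the median of all genes by -0.02, and the counts of several lists and classes with a median near 0 turned under it, chemokines, cytokines and SNORA genes included.

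The list with the highest median was that of ATF4. This factor is translated when amino acids run short or the endoplasmic reticulum is stressed, and it induces amino acid synthesis, amino acid transporters and tRNA synthetases. Of 43 members 37 were above 0 and 1 below, 6 were at least 1.5-fold higher and 0 lower, and the median was 0.38. Against mock the list median was 0.14 on array 109 and -0.13 on array 108. CHAC1, which degrades glutathione, was at 7.82 on array 109, 7.02 on array 108 and 7.27 on the mock array. The stress sensor SESN2 was at 7.99 on array 109, 7.25 on array 108 and 6.69 on the mock array. The glycyl-tRNA synthetase gene GARS1 was at 9.71 on array 109, 9.05 on array 108 and 9.24 on the mock array. In these 3 genes array 109 was the highest. The mitochondrial folate enzyme ALDH1L2 was at 6.87, 6.16 and 6.44 and the serine synthesis enzyme PSPH at 8.66, 8.06 and 8.52 on array 109, array 108 and mock. GDF15, a secreted stress cytokine, was the member below 0, at 6.62, 6.67 and 6.67 on the same arrays.

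Promoters of that list are shown for 3 members because they hold the composite element that ATF4 binds with C/EBP partners. They come from RefSeq on GRCh38.p14, all upstream of the start site, and the match to TGATGNAA on either strand is in capitals. CHAC1 is at chr15:40953221-40953340 on the plus strand, IARS1 at chr9:92293698-92293817 on the minus strand and ASNS at chr7:97872413-97872532 on the minus strand.
CHAC1: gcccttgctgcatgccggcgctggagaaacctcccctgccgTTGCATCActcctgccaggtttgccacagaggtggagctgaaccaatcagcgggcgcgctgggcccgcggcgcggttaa
IARS1: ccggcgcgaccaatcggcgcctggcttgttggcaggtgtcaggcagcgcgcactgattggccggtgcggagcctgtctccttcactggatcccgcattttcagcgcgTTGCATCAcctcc
ASNS: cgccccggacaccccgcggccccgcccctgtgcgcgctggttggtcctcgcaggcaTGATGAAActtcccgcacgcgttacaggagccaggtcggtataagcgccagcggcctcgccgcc
The motif was present in 324 of 14650 promoters, or 2.21%, and in 10 of the 36 list promoters that could be matched. Those 10 genes were all above 0, with a median of 0.44, and of the 26 list genes without it 21 were above 0 and 1 below, with a median of 0.35. Outside the list, 70 of 314 genes with the motif were above 0 and 73 below. IARS1, an isoleucyl-tRNA synthetase gene, was at 10.37 on array 109, 9.82 on array 108 and 10.13 on the mock array. The asparagine synthetase gene ASNS was at 8.30 on array 109, 7.77 on array 108 and 7.89 on the mock array.

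Targets of MYC that build ribosomes leaned the same way. Of 45 members 44 were above 0 and 1 below, 11 were at least 1.5-fold higher and 0 lower, and the median was 0.34. Against mock the median was 0.13 on array 109 and -0.19 on array 108. The nucleolar helicase DDX21 was at 10.07 on array 109, 9.14 on array 108 and 9.79 on the mock array. PUS7, a pseudouridine synthase, was at 8.22 on array 109, 7.41 on array 108 and 8.03 on the mock array. CAD, which starts pyrimidine synthesis, was at 7.60 on array 109, 6.86 on array 108 and 7.34 on the mock array. In each of these array 108 was the farther from mock. UTP20, part of the small subunit processome, was at 6.57 on array 109, 5.84 on array 108 and 6.30 on the mock array. RRS1, a factor for the large subunit, was at 7.97, 7.30 and 7.78 on array 109, array 108 and mock. WDR43 was the member below 0, at 7.98, 8.01 and 8.31. The ribosomal proteins themselves differed little, with 26 of 52 above 0, 9 below and a median of 0.00045. Under quantile scaling 18 of them were over 0.02 higher and 26 over 0.02 lower.

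The E-box CACGTG, bound by MYC with MAX, is shown in 2 promoters of the list, in capitals, from RefSeq on GRCh38.p14. UTP20 is at chr12:101279985-101280104 and NAT10, an RNA acetyltransferase gene of the nucleolus, at chr11:34105509-34105628, both on the plus strand and upstream of the start site.
UTP20: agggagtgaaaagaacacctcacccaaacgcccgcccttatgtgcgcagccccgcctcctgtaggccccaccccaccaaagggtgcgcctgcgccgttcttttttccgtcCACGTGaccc
NAT10: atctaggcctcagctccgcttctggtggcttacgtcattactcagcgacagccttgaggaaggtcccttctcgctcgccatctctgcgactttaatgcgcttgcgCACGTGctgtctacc
It was found in 14 of 37 list promoters and in 1376 of 14650 promoters, or 9.39%. Within the list, 13 of the 14 genes with the E-box were above 0, with a median of 0.28, and 23 of the 23 genes without it, with a median of 0.39. Outside the list 411 of 1362 genes with the E-box were above 0 and 366 below. NAT10 was at 8.24 on array 109, 7.82 on array 108 and 8.13 on the mock array.

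Small nucleolar RNAs of the SNORD and SNORA classes mostly guide the modification of ribosomal RNA. The SNORD class and the genes that host such RNAs leaned to array 109, and the SNORA and SCARNA classes did not. These classes were counted by symbol after the values were seen. Of 87 SNORD genes past the filter, out of 192, 63 were above 0 and 6 below, 16 were at least 1.5-fold higher and 0 lower, and the median was 0.19. Among 60 SNORA genes 20 were above 0 and 18 below, and among 18 SCARNA genes 6 and 6, both with a median of 0. Of 19 host genes 17 were above 0 and 1 below, 4 were at least 2-fold higher, and the median was 0.35. SNHG1 was at 7.08 on array 109, 5.89 on array 108 and 6.47 on the mock array. SNHG8 was at 8.43 on array 109, 7.26 on array 108 and 7.76 on the mock array. TAF1D, a subunit of the RNA polymerase I factor SL1 and a snoRNA host, had 5 probe sets that differed by 0.78 to 1.94, and its mean was 8.67 on array 109, 7.57 on array 108 and 8.17 on the mock array. The mock array lay between the siRNA arrays in these 3 host genes. SnoRNAs lie within introns of their hosts, so probe sets of a host and its snoRNA can share transcripts. Spliceosomal genes whose symbols begin with RNU and a digit went the other way, with 10 of 10 past the filter below 0 and a median of -0.30. RNVU1-2, whose symbol falls outside that class, was higher on array 109, at 6.89, 6.22 and 6.57 on array 109, array 108 and mock. That gene was added after its values were seen. RNU5D-1 was at 5.49 on array 109, 6.80 on array 108 and 6.54 on the mock array. RNU4ATAC, of the minor spliceosome, was at 8.49 on array 109, 9.56 on array 108 and 9.24 on the mock array. Under quantile scaling, added after the values were seen, the medians were 0.15 for SNORD, 0.30 for host genes and -0.33 for RNU genes. The intron control sets were higher on array 109 by 0.216 and the exon control sets by 0.164. The part of such technical differences in the values of these classes was not tested.

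**Figure D4:**
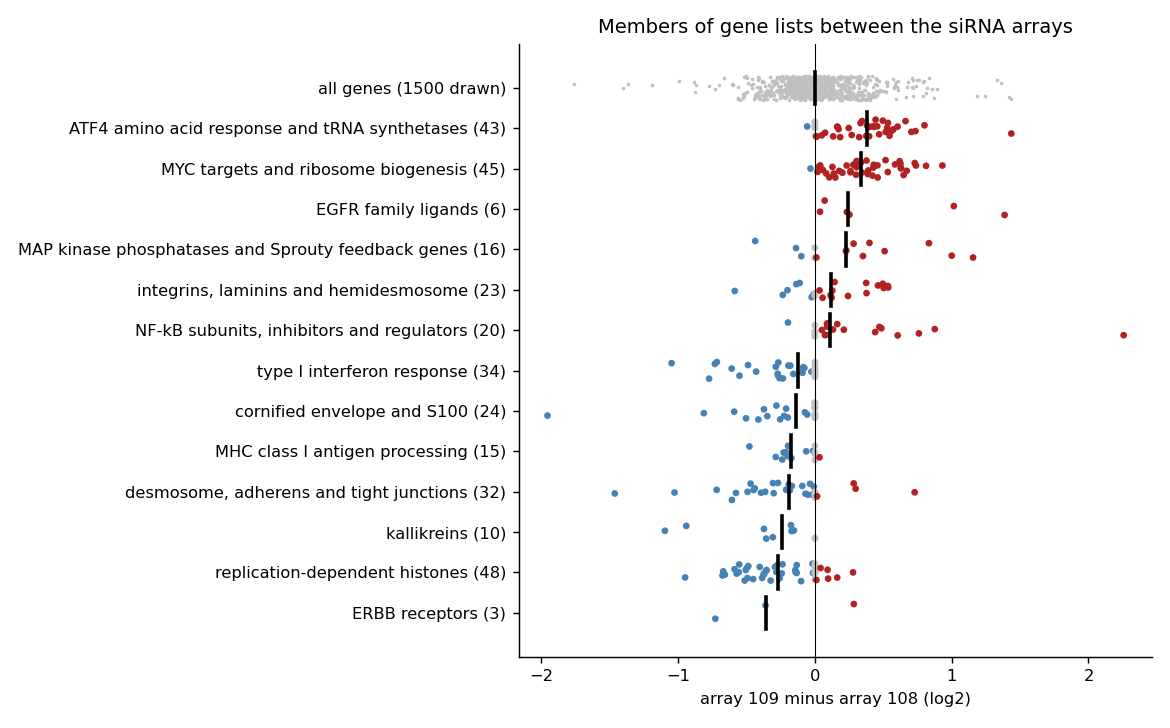
Array 109 minus array 108 on the log2 scale for each member of 13 gene lists whose median was at least 0.1 from 0, beside a random draw of 1500 genes past the filter for scale. Red points are above 0, blue points below and grey points tied, the thick bar is the median and the number in brackets is the members past the filter. The ATF4 and MYC lists lie almost wholly right of 0, and the interferon and junction lists mostly left.

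Among ligands of the EGFR family, EREG and HBEGF were at least 1.5-fold higher on array 109. All 6 ligands past the filter, of 8 listed, were above 0, with a median of 0.24, and 4 lay above the negative control mean on both siRNA arrays. NRG1, a ligand of ERBB3 and ERBB4, was under that mean on each array and differed by 0.04, and BTC by 0.07. EREG, which binds EGFR and ERBB4, was at 9.39 on array 109, 8.002 on array 108 and 8.15 on the mock array. HBEGF was at 8.37 on array 109, 7.35 on array 108 and 6.87 on the mock array. AREG was at 8.09 on array 109, 7.84 on array 108 and 7.92 on the mock array. TGFA was at 7.65, 7.41 and 7.35. Array 109 was the highest in all of these. EGFR itself was at 10.08 on array 109, 9.79 on array 108 and 9.76 on the mock array. ERBB3, a kinase-dead partner receptor, was at 5.16 on array 109, 5.89 on array 108 and 5.38 on the mock array. ERBB2 was at 6.41, 6.77 and 6.71. Thus 1 of the 3 receptors past the filter was higher on array 109.

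Several MAP kinase phosphatases and the Sprouty proteins are induced by ERK and dampen it. Not all the phosphatases listed act on ERK, and DUSP10 acts mainly on other MAP kinases. Of 16 genes on this list 10 were above 0 and 3 below, and 3 were at least 1.5-fold higher with 0 lower. DUSP4 was at 6.87 on array 109, 5.71 on array 108 and 6.25 on the mock array. SPRY2 was at 6.53 on array 109, 5.53 on array 108 and 6.05 on the mock array. SPRY4 was at 6.29, 5.46 and 5.71. In all 3 the mock array lay between the siRNA arrays. DUSP10 went the other way, at 7.95 on array 109, 8.39 on array 108 and 8.61 on the mock array. Immediate early genes were divided. FOSL1, an AP-1 subunit, was at 10.79 on array 109, 9.88 on array 108 and 10.48 on the mock array, whereas EGR1 was at 9.88 on array 109, 10.70 on array 108 and 9.84 on the mock array. Of 25 such genes 14 were above 0 and 8 below.

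NF-kB genes leaned to array 109. Of 20 listed, 15 were above 0 and 1 below, 4 were at least 1.5-fold higher and 0 lower, and the median was 0.11, or 0.07 under quantile scaling. The 4 include PTX3, the secreted protein described above, along with TNFAIP3, BIRC3 and NFKBIB. Against mock the median was 0.27 on array 109 and 0.15 on array 108, so this list was above mock on both. TNFAIP3, the feedback inhibitor A20, was at 8.35 on array 109, 7.47 on array 108 and 6.64 on the mock array. BIRC3, a ubiquitin ligase of TNF receptor signalling, was at 5.88 on array 109, 5.12 on array 108 and 4.44 on the mock array. NFKBIB, an inhibitor of NF-kB, was at 7.50 on array 109, 6.89 on array 108 and 7.33 on the mock array. In TNFAIP3 and BIRC3 the arrays stood in the order 109, 108, mock. Cytokines of the IL1, IL6 and colony-stimulating list did not lean as a whole, with 5 of 17 above 0, 2 below, 10 tied and a median of 0. The list's 3 members at least 1.5-fold higher were LIF, IL1A and TSLP. LIF was at 8.22 on array 109, 7.23 on array 108 and 7.33 on the mock array. IL1A was at 10.64, 9.95 and 9.36. TSLP, an epithelial cytokine, had a value of 4.85 on array 109, 3.95 on array 108 and 3.84 on the mock array. The lower values were under the negative control mean, and array 109 was at least 1.40-fold above array 108. CSF1 differed by -0.44 and IL1RN by -0.34. The chemokine CCL2 was at 5.25 on array 109, 5.88 on array 108 and 5.16 on the mock array. Of 15 chemokines 4 were above 0 and 3 below.

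Interferon response genes lay on the other side. Of 34 past the filter 0 were above 0 and 22 below, 5 were at least 1.5-fold lower, and the median was -0.12. Against mock the median was 0 on array 109 and 0.06 on array 108. HERC6, a ligase of the ISG15 system in mice, was at 5.50 on array 109, 6.28 on array 108 and 5.70 on the mock array. EPSTI1 was at 5.99 on array 109, 6.71 on array 108 and 6.20 on the mock array. For both, array 108 was the farther from mock, by under 1.5-fold. SAMD9, an antiviral factor, was at 6.80 on array 109, 7.54 on array 108 and 7.50 on the mock array, so there array 109 stood apart. PARP9, a partner of DTX3L, was at 6.32 on array 109, 6.93 on array 108 and 6.41 on the mock array. IFIT1, which binds viral RNA, was at 3.36 on array 109, 4.40 on array 108 and 4.40 on the mock array. Its level on array 108 was barely above the negative control mean of that array and the others were below theirs, so no fold is given. Only 20 of the 34 lay above the negative control mean on both siRNA arrays. Genes of MHC class I antigen processing had the same sign, with 1 of 15 above 0 and 10 below and a median of -0.17. The immunoproteasome subunit PSMB9 was at 4.83 on array 109, 5.31 on array 108 and 4.83 on the mock array.

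The interferon-stimulated response element is shown in capitals in 2 of these promoters, as the site where the factor ISGF3 acts, from RefSeq on GRCh38.p14. IFIT1 is at chr10:89392452-89392571 on the plus strand and SAMD9 at chr7:93118051-93118170 on the minus strand, both upstream of the start site.
IFIT1: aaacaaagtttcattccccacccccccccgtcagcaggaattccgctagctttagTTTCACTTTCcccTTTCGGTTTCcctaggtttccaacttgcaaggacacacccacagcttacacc
SAMD9: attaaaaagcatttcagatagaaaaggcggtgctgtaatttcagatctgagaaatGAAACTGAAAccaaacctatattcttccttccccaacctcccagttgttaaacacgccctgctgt
The motif, GAAA and GAAA with 2 bases between them on either strand, was found in 17 of 29 list promoters and in 415 of 14650, or 2.83%. Of the 17, 12 were below 0, with a median of -0.16, and of the 12 list genes without it 7 were below 0, with a median of -0.13. Outside the list 111 of 398 genes with the motif were above 0 and 101 below.

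Epithelial junction and differentiation genes were lower on array 109 than on array 108. Of 32 desmosome, adherens and tight junction genes 4 were above 0 and 24 below, 4 were at least 1.5-fold lower and 1 higher, and the median was -0.19. The list median against mock was 0 on array 109 and 0.17 on array 108. The desmosomal cadherin DSG3 was at 7.80 on array 109, 8.52 on array 108 and 7.39 on the mock array. DSC3 was at 6.69 on array 109, 7.30 on array 108 and 7.01 on the mock array. JUP, or plakoglobin, was at 9.32 on array 109, 9.90 on array 108 and 9.47 on the mock array. Array 108 was the highest in all 3. E-cadherin, CDH1, was at 9.03 on array 109, 9.53 on array 108 and 8.9998 on the mock array. The plakophilin PKP2 was the exception past 1.5-fold, at 8.64 on array 109, 7.91 on array 108 and 8.72 on the mock array. Of 24 genes of the cornified envelope and S100 group, 0 were above 0 and 14 below. Of 10 kallikreins, proteases that shed corneocytes, 0 were above 0 and 8 below. KLK5 was at 8.64 on array 109, 9.58 on array 108 and 9.82 on the mock array. KLK9 was at 5.13, 6.23 and 5.94. KRT5, the basal keratin, was at 5.77 on array 109, 6.75 on array 108 and 6.66 on the mock array. Of the 11 epithelial markers 2, KRT8 and KRT18, were above 0 and 9 below, with the summed intensities given above, and their part in these lists was not tested. Integrins and laminins, which hold the cell to its basement membrane, had 14 of 23 above 0 and 7 below and a median of 0.11. Under quantile scaling, which let 24 past the filter, 12 were over 0.02 higher and 11 over 0.02 lower, with a median of 0.05.

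Genes of the cell cycle were mixed. Of 48 replication-dependent histone genes, which are made in S phase, 6 were above 0 and 34 below, 5 were at least 1.5-fold lower, and the median was -0.27. Against mock it was -0.54 on array 109 and -0.25 on array 108, so both siRNA arrays were lower than mock. The linker histone H1-2 was at 8.85 on array 109, 9.80 on array 108 and 10.30 on the mock array. Histone genes are near-identical in places and probe sets can share signal among them. Of 55 mitosis genes 19 were above 0 and 26 below, with a median of 0. FOXM1, a factor that drives mitotic genes, was at 8.47 on array 109, 9.31 on array 108 and 9.43 on the mock array. The kinase AURKA was at 6.71, 7.51 and 7.74. MKI67, the proliferation marker, was at 9.88 on array 109, 9.21 on array 108 and 9.77 on the mock array. Of 51 genes of G1/S and replication 22 were above 0 and 14 below, but under quantile scaling 13 were over 0.02 higher and 32 over 0.02 lower. CDK6, which starts the cycle with D-type cyclins, was at 8.99 on array 109, 7.94 on array 108 and 8.46 on the mock array. CCND1 was at 9.13 on array 109, 8.41 on array 108 and 8.87 on the mock array. Thymidylate synthase, TYMS, was at 7.15, 7.90 and 8.39.

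**Figure D5:**
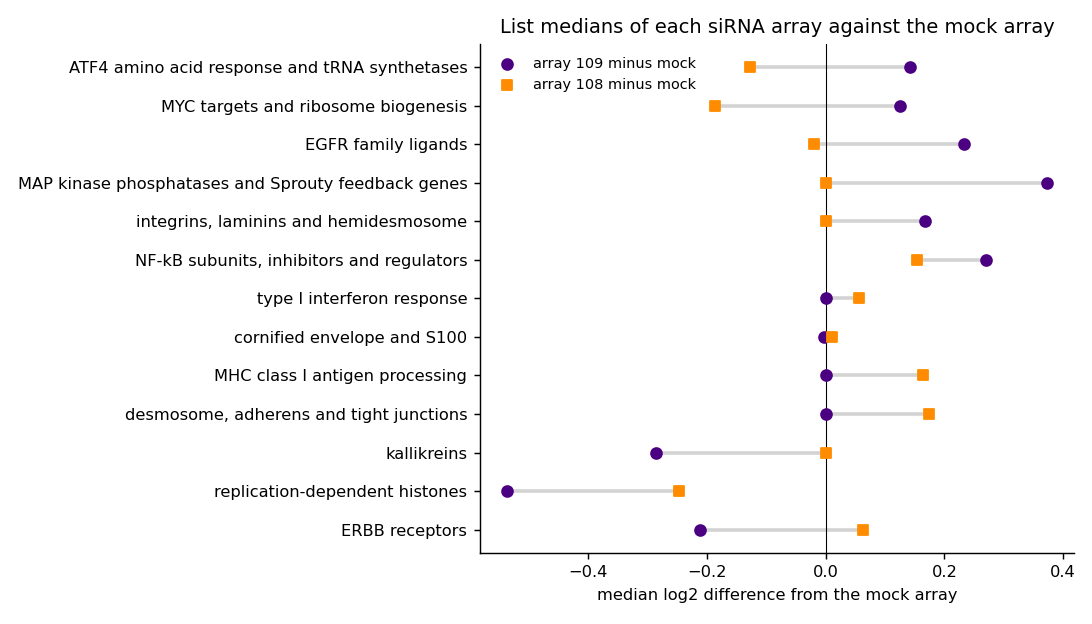
Median log2 difference from the mock array for the same 13 lists, on array 109 (circles) and array 108 (squares). The ATF4 and MYC lists lie above 0 on array 109 and below 0 on array 108, histone genes lie below 0 on both, and NF-kB genes lie above 0 on both. The single mock array enters both points of each line.

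SWI/SNF subunits, ARID1A itself included, did not lean as a whole between the siRNA arrays. Of 26 subunits 12 were above 0 and 8 below, ARID1A among the latter, with a median of 0. At 1.5-fold 2 were higher and 0 lower, against 2.12% and 1.48% of all genes past the filter. Under quantile scaling 8 were over 0.02 higher and 14 over 0.02 lower. PHF10, a subunit of the PBAF form, was at 8.39 on array 109, 7.49 on array 108 and 8.16 on the mock array. BRD7, also of PBAF, was at 7.68 on array 109, 6.91 on array 108 and 7.63 on the mock array. For both, array 108 was the one away from mock. The ATPase SMARCA4 was at 8.58 on array 109, 8.17 on array 108 and 8.05 on the mock array.

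Of 923 genes past the filter with several probe sets, 20 were at least 1.5-fold apart, and in 19 of these every probe set had the same direction. In 5 of the 20 all probe sets hold identical values, and genes were chosen by the mean of their probe sets, so the same direction is no independent check. The exception was MMP2, a gelatinase, whose probe sets differed by 0.17 and -1.49. Such probe sets share the RNA sample and are not replicates.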

How the data were processed

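Expression was measured with 3 Affymetrix Human Gene 2.0 ST arrays of SAS cells. The authors used Affymetrix Expression Console, per the submitters' processing notes. The software version, background correction, probe summary and genome build were not given in the sources used here. The deposited series table holds log2 expression values, normalized by the authors. The per-sample tables the authors deposited hold the same values as linear intensity, the ratio of each siRNA array to mock and each array's negative control level, per the file headers. Values were taken as deposited, and 0 columns of per-sample values were left unused.

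For 1435 genes the mean over several probe sets was used. Genes whose mean log2 value lay under the 30th percentile, at 3.52, were left out. A gene was called when the siRNA arrays differed by at least 2-fold, or 1.5-fold where stated, and the brighter array lay above its own negative control mean. Where the dimmer array was below its mean, the fold is a bound against that mean. An siRNA array was counted as away from mock at 1.5-fold. With 1 array a side, no test was run. The code for calls and for which array moved was run on simulated data, with clear shifts put in on 1 of the siRNA arrays. Their recovery was set by that design, so the run checks the code only. It cannot show how reliable the calls are here, and shifts on the other siRNA array or on both were not simulated.

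ARID1A is named first, then the 15 highest and 15 lowest genes, leaving out 19 higher and 8 lower uncharacterised, microRNA, small nuclear or nucleolar, LINC and pseudogene symbols. One of the 15 highest is not reported here. Up to 5 genes per class of which array moved and up to 5 members per described list follow. Marker genes, the genes of the snoRNA and RNU classes, ARRDC4, genes at the edge of the 2-fold rule, neighbouring pairs, and a few further list members were chosen after their values were seen. The comparison, its gene lists, the motifs and the promoters shown were chosen with earlier results of these data known. Promoters are RefSeq sequences of GRCh38.p14, matched by symbol for 14650 genes, and windows of 120 bases are printed.

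Alternatives were quantile, median and cyclic loess scaling (limma 3.58.1, R 4.3.3), the filter, the probe set per gene, the call rules and the rule for mock. Other steps used Python 3.11.15, numpy 2.4.6 and pandas 2.3.3.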

Additional observations from a re-analysis of the deposited data

Results flagged for a closer look

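Probe sets without a gene symbol stood outside the comparison, and some differed between the siRNA arrays. Of 13494 such probe sets for genes and transcripts, 23 were at least 2-fold higher on array 109 than on array 108, or 0.170%, and 15 were at least 2-fold lower, or 0.111%. Their largest differences were 2.59 and -2.10, and the files used here do not pair them with genes. The difference was not tested.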

How the results depend on the processing

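The counts at least 2-fold apart ranged from 81 to 104 higher and from 63 to 83 lower on array 109 over all alternatives. The 104 counts probe sets and not genes, from the alternative that took every probe set with 1 symbol and no filter. Under quantile scaling they were 81 higher and 83 lower, against 96 and 71 as deposited, and at 1.5-fold 373 and 352, against 437 and 305. All the other scalings kept more genes higher than lower. The 13 lists with a median at least 0.1 from 0 kept its sign under quantile, median and loess scaling, both filters and the single probe set. Demanding 2-fold from mock in place of 1.5-fold left 17 genes higher and 43 lower by array 109 alone, 22 higher and 4 lower by array 108 alone, and 0 by both in opposite directions. Taking the probe set with the highest mean gave SLC7A11 1.03, MMP2 -1.49 and PSMD3 0.06, against 0.34, -0.66 and 0.54 as averages. No paired analysis was possible because each side is 1 array, and for the same reason leaving out an array leaves no comparison. The number of arrays and the higher negative control mean on array 109 limit what dim genes can show.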

Other observations

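Further groups were counted by symbol. Translation initiation genes whose symbols begin with EIF were above 0 in 32 of 57 and below 0 in 7, with 3 at least 2-fold higher on array 109, but under quantile scaling 25 were over 0.02 higher and 24 over 0.02 lower. EIF5B, which joins the ribosomal subunits, was at 8.92 on array 109, 7.69 on array 108 and 8.67 on the mock array. EIF3J was at 6.64 on array 109, 5.42 on array 108 and 6.30 on the mock array. In both, array 108 was the one away from mock. RAB genes, which direct vesicle traffic, were above 0 in 8 of 55 and below 0 in 22, and 3 were at least 2-fold lower. RAB5A, of early endosomes, was at 5.51 on array 109, 6.83 on array 108 and 6.73 on the mock array, so array 109 stood apart. These classes and genes were chosen after their values were seen.

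Nuclear genes of oxidative phosphorylation were below 0 in 32 of 56 and above 0 in 6, with a median of -0.05, and lysosome and autophagy genes below 0 in 21 of 35 and above 0 in 4, with a median of -0.08. INSIG1, which holds back sterol synthesis, was at 8.53 on array 109, 9.72 on array 108 and 9.25 on the mock array. SEL1L, part of the machinery that clears misfolded proteins from the endoplasmic reticulum, was at 7.15 on array 109, 8.25 on array 108 and 7.90 on the mock array. INHBA, the activin A subunit, was at 8.05 on array 109, 6.85 on array 108 and 6.62 on the mock array. The matrix protein FN1, fibronectin, was at 7.81 on array 109, 6.65 on array 108 and 6.51 on the mock array. Both genes were highest on array 109. Of 867 antisense genes 159 were above 0 and 153 below, with 16 at least 1.5-fold higher and 3 lower. Of 773 LINC genes 120 were above 0 and 124 below, with 12 at least 1.5-fold higher and 6 lower. Over all genes past the filter 2.12% were at least 1.5-fold higher and 1.48% lower, so the higher counts of both classes are not read as a trait of them. Under quantile scaling 135 antisense genes were over 0.02 higher and 303 over 0.02 lower.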
